A study of Mus musculus with 12 samples.

Results

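Genes of mitosis and of the G2/M transition were followed in mouse kidney cortex after ischemia-reperfusion (I/R), with and without a proximal tubule knockout of Gfer, the gene of the augmenter of liver regeneration (ALR). The set comprised 40 genes, listed by name and sorted into 11 groups by role, and all were found among the 55487 genes of the count table. Bulk RNA sequencing covered 12 libraries in 4 groups of 3, with totals of 12165089 to 23123693 counts per library. Levels are given as CPM, counts scaled to a fixed library size, with library sizes adjusted by the trimmed mean of M values (TMM), and errors are the SD of 3 libraries. Genes passed the test when the quasi-likelihood F test of edgeR gave a Benjamini-Hochberg adjusted p under 0.05, adjusted over every gene tested in the comparison. Changes of single genes are log2 fold changes from that test with their standard error.

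Sham controls (Ctrl) were mice with the floxed Gfer allele on both chromosomes and without Cre, labelled WT. Sham knockouts (PT-KO) carried the same floxed allele together with Ggt1-Cre and were labelled ALR knockdown. Injured controls (Ctrl+I/R) and injured knockouts (PT-KO+I/R) had the same genotypes and underwent 22 min of bilateral renal ischemia with 24 h of reperfusion. All were young mice on a mixed C57BL/6 background. Ggt1-Cre acts in the proximal tubule, so other cells of the cortex keep the gene. Counts of Gfer were not lower in the knockout groups. It was at 12.7, 11.4 and 14.4 CPM in sham controls and 9.96, 17.1 and 15 in sham knockouts, with overlapping groups (edgeR adjusted p = 0.761), and 15.3, 20 and 17.6 in injured controls and 21.6, 22.8 and 21.6 in injured knockouts. After I/R each knockout library was thus above each control library (edgeR adjusted p = 0.0723), and the knockout groups rest on their labels. Havcr1, a marker of tubular injury, was at 785, 2105 and 381 CPM in injured controls and 2257, 3929 and 3226 in injured knockouts, and below 5 CPM in every sham library. Of 4 such markers, 3 were higher and 1 lower in injured knockouts than injured controls, where 22.5% and 24.4% of all tested genes were. Xist, expressed in females, was abundant in Ctrl libraries 1 and 2 alone, so sex and injury cannot be wholly told apart where sham controls are compared.

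The genes of mitosis are switched on late in the cell cycle as one program, in which FOXM1 and B-MYB act on promoters held by the MuvB complex. CDK1 with cyclin B starts mitosis, Polo-like and Aurora kinases build the spindle, checkpoint kinases hold back the anaphase-promoting complex (APC/C) until kinetochores are attached, and centralspindlin then directs cytokinesis. Cells of the adult kidney divide rarely, and surviving tubule cells re-enter the cycle after injury. In bulk tissue, fewer cells of a type and less RNA per cell cannot be told apart.

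Promoters of this program are known for the cell cycle homology region (CHR), which MuvB complexes contact, and for CCAAT boxes. RefSeq promoters (GRCm38.p6, 250 bases before the start site and 50 from it on) were matched to 35 of the 40 genes, as 37 promoters. A CHR, searched as TTTGAA or TTCGAA on both strands, occurred in 30 of them (81.1%) and in 19.2% of all 32851 promoters of this length. Within 40 bases of the start site the shares were 73.0% and 4.5%. The CCAAT box, searched as CCAAT on both strands, occurred in 78.4% against 37.4%, and a CCAAT box 20 to 50 bases before a CHR in 51.4% against 1.25%. The E2F site, searched as TTTNNCGC with each N being G or C on both strands, occurred in 5.41% against 2.26%. Birc5, Ccnb1, Cenpe, Melk, Ncaph, Nuf2 and Nusap1 had no CHR in this window. Promoters of Aurkb, Ccna2, Foxm1, Kif20a and Tpx2 were not analysed here.

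**Figure D1:**
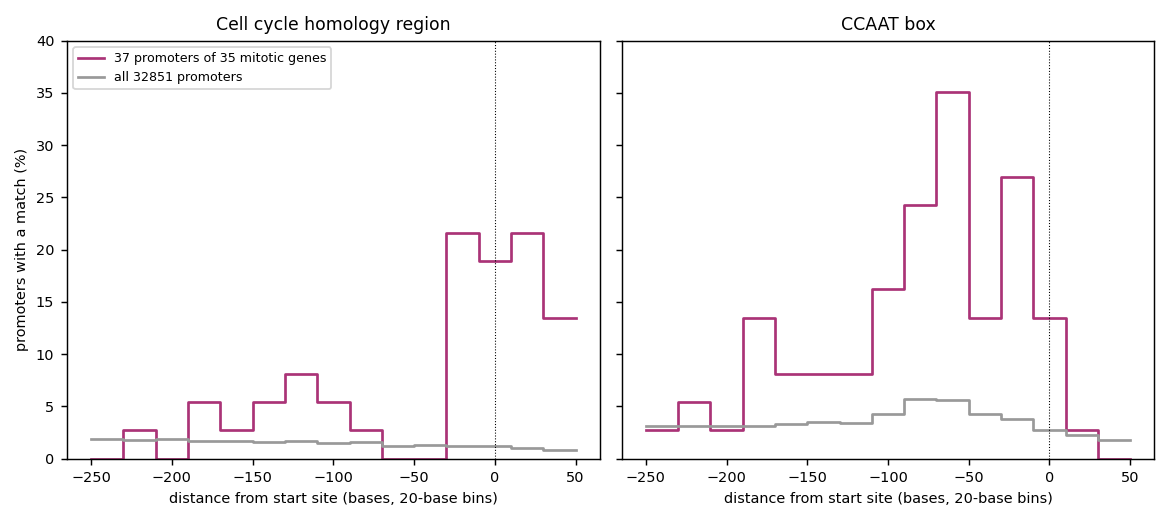
Percent of promoters with a CHR or a CCAAT match in each 20-base bin, by distance from the RefSeq start site in bases, for the 37 promoters of the mitotic genes and for all 32851 promoters. CHR matches of the mitotic genes gather around the start site and CCAAT matches just before it, where all promoters show far lower shares.

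The following promoters are shown to set genes of different response side by side: Top2a, Cdk1, Cdc20, Kif11 and Ccnb2 were lower in injured knockouts than injured controls, and Kif23 was higher while its partner Racgap1 was lower. Spc25 was not called in the edgeR comparisons, though some alternative fits called it. Each runs 5′ to 3′ on the strand of its gene, from 80 bases before the start site to 30 from it on, with CHR and CCAAT matches of either strand in capitals.
Top2a: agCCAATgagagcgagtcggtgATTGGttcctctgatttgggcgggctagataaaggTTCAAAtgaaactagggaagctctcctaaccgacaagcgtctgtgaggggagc
Cdk1: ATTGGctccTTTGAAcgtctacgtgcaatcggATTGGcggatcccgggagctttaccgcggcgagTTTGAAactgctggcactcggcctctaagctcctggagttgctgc
Cdc20: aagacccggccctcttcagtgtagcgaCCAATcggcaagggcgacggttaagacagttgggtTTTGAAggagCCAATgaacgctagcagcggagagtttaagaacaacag
Kif11: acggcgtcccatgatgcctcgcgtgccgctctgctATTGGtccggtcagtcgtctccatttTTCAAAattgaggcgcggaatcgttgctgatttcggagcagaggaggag
Ccnb2: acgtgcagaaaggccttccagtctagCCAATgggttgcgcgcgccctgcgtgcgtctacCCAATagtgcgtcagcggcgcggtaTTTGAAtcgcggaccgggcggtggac
Kif23: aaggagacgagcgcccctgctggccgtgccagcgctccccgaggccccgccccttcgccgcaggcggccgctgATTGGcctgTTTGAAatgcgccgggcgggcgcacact
Racgap1: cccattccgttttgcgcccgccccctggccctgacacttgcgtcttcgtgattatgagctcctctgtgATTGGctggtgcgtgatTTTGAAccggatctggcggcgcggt
Spc25: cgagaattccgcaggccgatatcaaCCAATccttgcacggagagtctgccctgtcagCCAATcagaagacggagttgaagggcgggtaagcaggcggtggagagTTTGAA
In GRCm38.p6 these windows are Top2a at chr11:99024160-99024269 (minus strand), Cdk1 at chr10:69352883-69352992 (minus strand), Cdc20 at chr4:118437314-118437423 (minus strand), Kif11 at chr19:37376302-37376411 (plus strand), Ccnb2 at chr9:70421525-70421634 (minus strand), Kif23 at chr9:61946770-61946879 (minus strand), Racgap1 at chr15:99651627-99651736 (minus strand) and Spc25 at chr2:69206184-69206293 (minus strand). The CHR began 23 bases before the start site in Top2a, 18 in Cdc20 and 19 in Kif11. It began at offset 2 in Kif23, 5 in Racgap1 and 24 in Spc25, counted from 0 at the start site. Kif23 and Racgap1 each had a single CCAAT match and a single CHR match in this window. A match is a description of letters, and binding was not measured.

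Summed over the 40 genes, the level was 173 ± 9.84 CPM in sham controls, 357 ± 28.7 in injured controls, 135 ± 52.9 in sham knockouts and 90 ± 20.2 in injured knockouts (SD, n = 3). Injured controls had the highest group mean for 36 genes, sham controls for Ccnb2, Cenpa and Spc25, and injured knockouts for Kif23. Injured knockouts had the lowest mean for 32 genes. Counts were small there, with a median of 18.5, 21 and 18 counts per gene in libraries 2, 3 and 4.

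**Figure D2:**
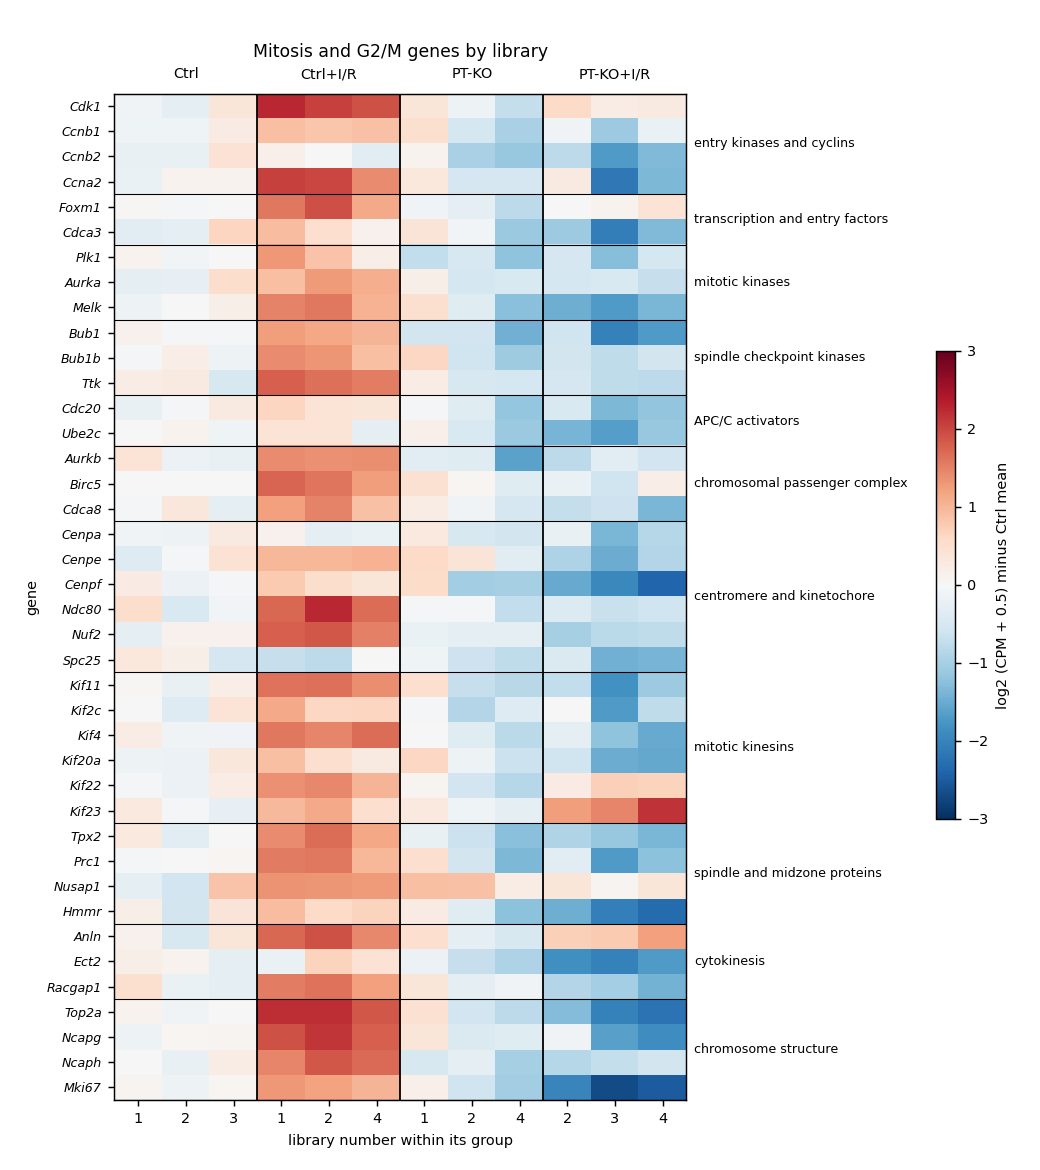
Levels of the 40 genes, grouped by role, in the 12 libraries, as log2(CPM + 0.5) minus the mean of the 3 sham control libraries. Most genes are above that mean in injured controls and below it in injured knockouts, with Kif23, Kif22, Anln, Cdk1, Foxm1 and Nusap1 as exceptions in the latter.

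In control mice, 27 of the 40 genes rose after I/R and 0 fell, where 11.4% of all 15567 tested genes rose. The median log2 fold change was 1.39 for the 40 genes and -0.01 for all tested genes. In 33 genes each injured library exceeded each sham library, which was so in 21.4% of all tested genes. All genes of chromosome structure, the checkpoint kinases and the chromosomal passenger complex rose, as did 4 of 6 kinesins and 3 of 6 centromere and kinetochore genes, but neither Cdc20 nor Ube2c did. The count fell to 17 without Ctrl library 1 and 15 without Ctrl library 2, which are the female libraries, and to 8 without both, in a fit to the other 10 libraries where Ctrl library 3 was the only sham control. The median of the 40 genes stayed at 1.40, 1.39 and 1.43 in these 3 fits, while the genes that rose among all tested, 1778 in the comparison of all 6 libraries, numbered 320, 343 and 664. The 8 genes still called without both females were Cdk1, Foxm1, Ttk, Ndc80, Nuf2, Racgap1, Top2a and Ncaph, so the other calls among the 40 genes in controls were lost in that fit.

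In knockout mice, 37 of the 40 genes had enough counts to be tested for I/R. Kif22, Kif23 and Anln rose, where 32.9% of 15155 tested genes did, and 12 fell, where 32.7% did. The share of genes that fell was thus near that of all genes, and the share that rose was below it. The median log2 fold change was -0.76, against 0.01 for all tested genes. Groups did not overlap in 4 genes in the higher direction (all tested genes 35.9%) and in 11 of all 40 genes in the lower direction (35.0%), the untested Melk being one of them. Without PT-KO+I/R library 2, 21 fell and 3 rose, with a median of -1.23. Without PT-KO library 1, 7 fell and 4 rose, with a median of -0.35.

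Between the injured groups, 37 of the 40 genes were lower in knockouts, where 24.4% of 15281 tested genes were, and Kif23 alone was higher, where 22.5% were. The median log2 fold change was -2.46, against -0.005 for all tested genes. Each knockout library was below each control library in 37 genes (all tested genes 29.2%), and Cenpa and Spc25 did not pass the test. The response to I/R differed between genotypes in 27 genes by the edgeR interaction over all 12 libraries, each time with the lower value in knockouts, where 16.4% of 16168 tested genes were called in that direction. That number was 16 without both female Ctrl libraries, with a median of -2.10 against -2.12, and the genes called in that direction among all tested went from 2648 to 1428. The 11 genes that lost this call were Cdk1, Ccna2, Cdca3, Aurka, Bub1b, Ube2c, Cenpf, Kif20a, Prc1, Nusap1 and Ncapg.

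Without injury, edgeR called none of the 40 genes between knockouts and controls, and 0.0% of 15291 tested genes. An unadjusted p under 0.05 was found for 4 of the 40 and for 2573 of all tested genes, and DESeq2 called 458 genes with 0 of the 40 among them. The median log2 fold change was -0.38 for the 40 genes and -0.01 for all tested genes. Leaving out Ctrl library 3, so that both remaining sham controls were female, gave 2 calls among the 40 and 1930 among all 15597 genes tested, whereas the other fits with 1 library left out called 0 to 3 of all genes. The sham knockouts differed among themselves, with library 1 the highest of the group in 38 genes and library 4 the lowest in 35. Plk1 had 1.96, 1.65 and 1.77 CPM in sham controls and 0.883, 1.13 and 0.490 in sham knockouts, which did not overlap and did not pass the test (edgeR adjusted p = 0.214).

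**Figure D3:**
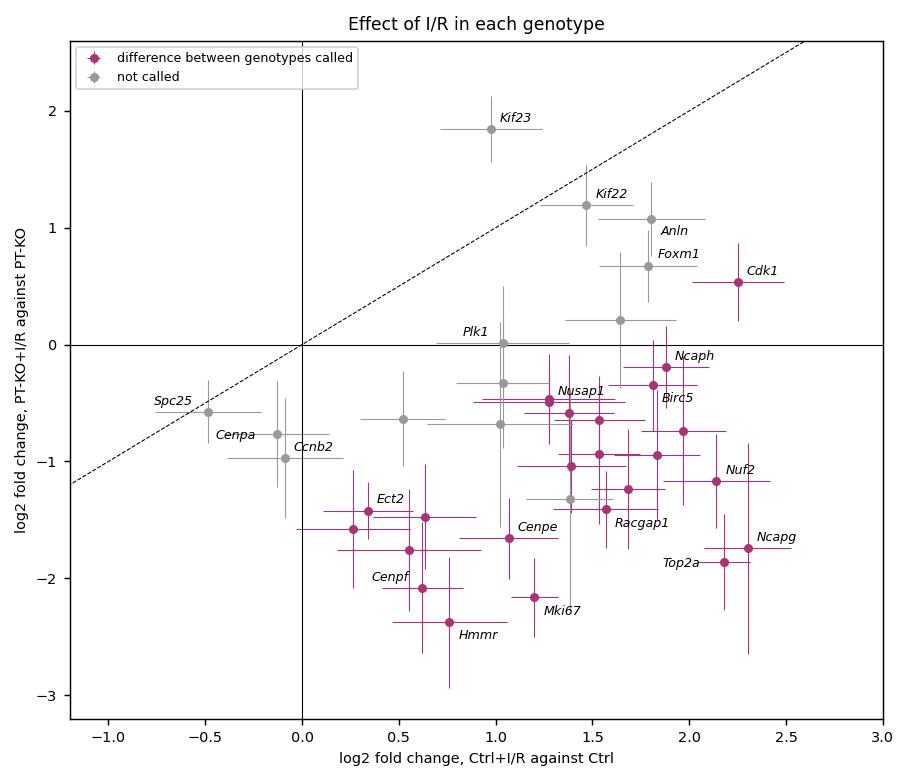
Log2 fold change after I/R in control mice (horizontal axis) and knockout mice (vertical axis) for the 37 genes tested in both, with bars of 1 SE, a dashed line of equal change, and colour for genes whose response differed between genotypes. Kif23 alone lies above the line, and Kif23, Kif22 and Anln are the genes called as rising in both genotypes. Cdk1, Foxm1, Aurkb and Plk1 also have positive values on both axes.

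Among genes of chromosome structure, Mki67 (chr7:135689784-135716361), the gene of the Ki-67 protein that coats mitotic chromosomes, was at 17.7, 15 and 17.2 CPM in sham controls, 41.7, 38.7 and 33.9 in injured controls, 18.6, 10.8 and 7.79 in sham knockouts and 3.84, 2.18 and 2.51 in injured knockouts. Injured knockouts were the lowest and injured controls the highest, without overlap. Mki67 rose in controls by 1.20 ± 0.12 on the log2 scale (edgeR adjusted p = 0.00337) and fell by 2.16 ± 0.34 in knockouts (adjusted p = 0.000310). Without both female sham controls the change of Mki67 in controls was 1.12 and did not pass (adjusted p = 0.109). Top2a (chr11:98992943-99024189), the topoisomerase that untangles chromatids, was at 9.08, 7.75 and 8.31 CPM in sham controls, 40.9, 40.7 and 31.8 in injured controls, 11.7, 5.43 and 4.66 in sham knockouts and 3.07, 1.69 and 1.42 in injured knockouts. Its order was the same, and injured knockouts differed from injured controls by -4.25 ± 0.26 on the log2 scale (edgeR adjusted p = 0.000101). The condensin subunits Ncapg and Ncaph, which compact chromosomes, differed there by -4.20 ± 0.83 and -2.81 ± 0.23. Ncapg was uneven among injured knockouts (1.20, 0.0890 and 0 CPM), differed by -6.80 without PT-KO+I/R library 2, and shares exon bases with Lcorl on the opposite strand.

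Cdk1 (chr10:69335146-69352938), the kinase that starts mitosis, was at 2.31, 2.01 and 3.38 CPM in sham controls, 13.9, 11.9 and 10.8 in injured controls, 3.40, 2.21 and 1.35 in sham knockouts and 4.01, 3.02 and 3.16 in injured knockouts. Injured controls stood apart from the other 9 libraries. Cdk1 rose in controls by 2.25 ± 0.24 (edgeR adjusted p = 0.00385), whereas its change of 0.54 ± 0.33 in knockouts did not pass (adjusted p = 0.180), and the 2 changes differed (adjusted p = 0.0101). Without PT-KO library 1 the change of Cdk1 in knockouts was 0.91 and passed (adjusted p = 0.0393). Without both female sham controls the difference between the changes was -1.31 in place of -1.70 and did not pass (adjusted p = 0.104). Ccna2, the cyclin A2 of S and G2 phases, was at 3.61, 4.58 and 4.60 CPM in sham controls, 19.1, 18.5 and 12.2 in injured controls, 5.42, 2.85 and 2.82 in sham knockouts and 5.21, 0.578 and 1.35 in injured knockouts. One injured knockout library lay above the other two. Ccna2 shares exon bases with Exosc9 on the opposite strand, which had more counts, and strand was not given for the counting. Ccnb1, the cyclin B1 partner of CDK1, was at 1.60, 1.59 and 2.22 CPM in sham controls, 3.75, 3.60 and 3.73 in injured controls, 2.71, 1.08 and 0.674 in sham knockouts and 1.62, 0.578 and 1.48 in injured knockouts. It rose in controls by 1.04 ± 0.24 (edgeR adjusted p = 0.0282), a call lost without any 1 of Ctrl libraries 1 and 2 and Ctrl+I/R libraries 1 and 2, which is 4 of 6 such fits. The rise of Ccnb1 was 0.72 and not called without both females (adjusted p = 0.545), and it was not called in 1 fit to all libraries. Ccnb2, or cyclin B2, had means of 3.07 ± 0.984 CPM in sham controls, 2.87 ± 0.544 in injured controls, 1.89 ± 1.21 in sham knockouts and 1.01 ± 0.488 in injured knockouts. Injured knockouts were below injured controls, with a log2 difference of -1.57 ± 0.39 (edgeR adjusted p = 0.0132) that no longer passed without Ctrl+I/R library 1 or PT-KO+I/R library 4.

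Within a library, the level of Cdk1 was 1.27 to 1.53 times that of Ccnb1 in sham controls and 2.90 to 3.70 times in injured controls, without overlap. It was 1.26 to 2.05 times in sham knockouts and 2.13 to 5.23 times in injured knockouts. These ratios do not correct for gene length.

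Foxm1, a transcription factor of the G2/M program, was at 2.36, 2.20 and 2.27 CPM in sham controls, 7.81, 10.1 and 5.62 in injured controls, 2.08, 1.78 and 1.10 in sham knockouts and 2.31, 2.49 and 3.16 in injured knockouts. Injured knockouts lay above sham knockouts, but the change of 0.68 ± 0.31 did not pass the test (edgeR adjusted p = 0.0781). They were below injured controls, with a log2 difference of -1.57 ± 0.27 (adjusted p = 0.00261). Cdca3, which promotes degradation of the mitosis inhibitor WEE1, fell by 1.76 ± 0.52 after I/R in knockouts (edgeR adjusted p = 0.0131). That call was lost without PT-KO library 1 (-1.33) or PT-KO+I/R library 3 (-1.342).

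**Figure D4:**
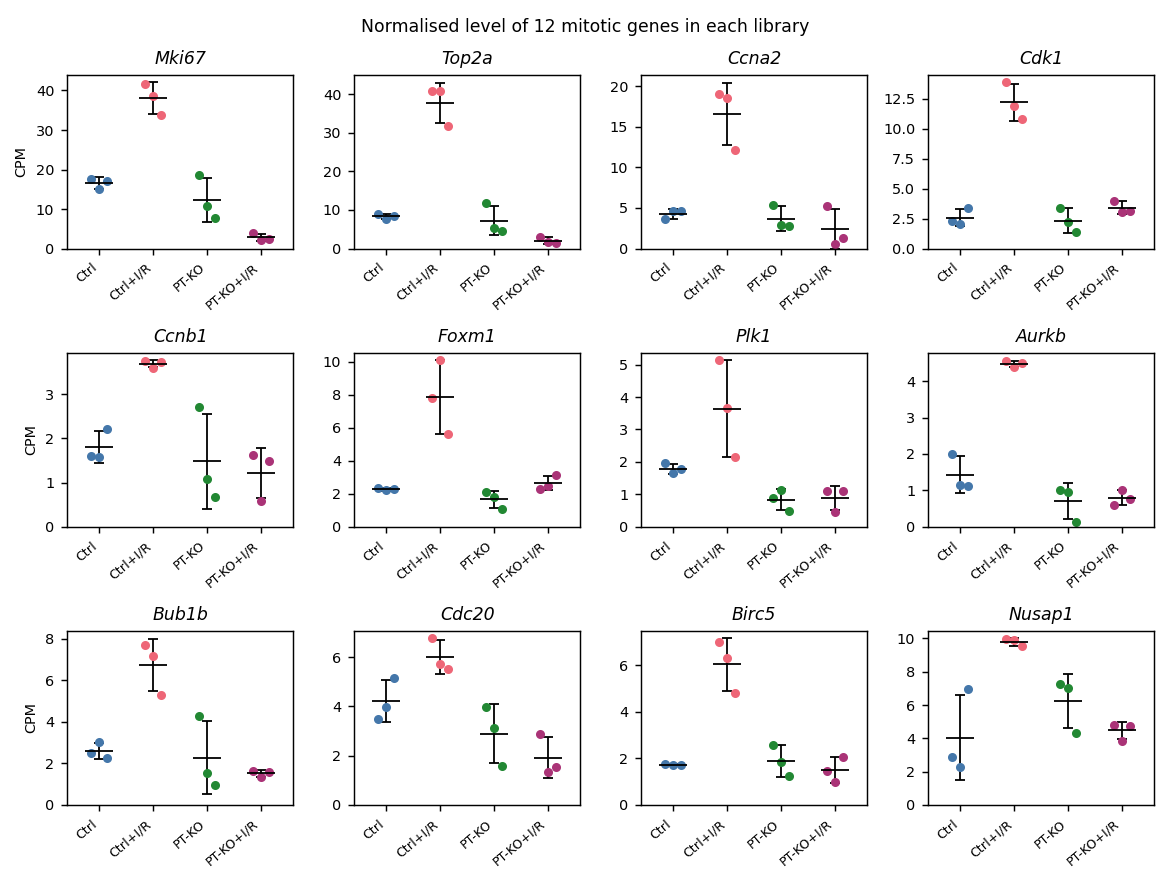
CPM of 12 mitotic genes in each of the 12 libraries, by group, with the mean and SD of 3. In each panel the injured controls lie above the injured knockouts without overlap.

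Aurka, or Aurora A of the centrosome, was at 1.10, 1.16 and 2.33 CPM in sham controls, 3.17, 4.28 and 3.67 in injured controls, 1.70, 0.861 and 0.920 in sham knockouts and 0.854, 0.934 and 0.709 in injured knockouts. Injured controls were above the other groups, and the injured knockouts were below sham controls by a small margin. Plk1, the Polo-like kinase of mitotic entry, was at 5.13, 3.65 and 2.15 CPM in injured controls and 1.11, 0.445 and 1.10 in injured knockouts, a difference of -2.10 ± 0.46 on the log2 scale (edgeR adjusted p = 0.00774). Melk, a kinase of proliferating cells, had 219 counts over the 3 injured control libraries and 3 over the 3 injured knockout libraries. The ratio was 63.2, with a 95% exact interval of 21.3 to 309 that covers counting error only.

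Of the spindle checkpoint kinases, Bub1b, the gene of BubR1, which restrains CDC20, was at 2.51, 3.05 and 2.27 CPM in sham controls, 7.72, 7.20 and 5.31 in injured controls, 4.29, 1.56 and 0.981 in sham knockouts and 1.62, 1.33 and 1.61 in injured knockouts. It rose in controls by 1.38 ± 0.23 (edgeR adjusted p = 0.0134), a call lost without Ctrl library 1. The response of Bub1b differed between genotypes by -1.95 ± 0.59 (edgeR adjusted p = 0.0266), which no longer passed without any 1 of Ctrl library 1, Ctrl+I/R library 1, PT-KO library 1 and PT-KO+I/R libraries 3 and 4, and was -1.13 without PT-KO library 1. Bub1 and Ttk, which recruit the checkpoint to kinetochores, were lower in injured knockouts than injured controls, with log2 differences of -3.89 ± 0.82 and -4.12 ± 0.39. Bub1 had 10, 0 and 2 counts in the injured knockout libraries, and its difference ran from -6.05 (without PT-KO+I/R library 2) to -3.10 with 1 library left out, called each time.

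Cdc20, the APC/C activator that the checkpoint holds back, was at 3.51, 3.97 and 5.15 CPM in sham controls, 6.78, 5.74 and 5.50 in injured controls, 3.97, 3.12 and 1.59 in sham knockouts and 2.90, 1.33 and 1.55 in injured knockouts. Injured controls lay just above sham controls, and the change of 0.52 ± 0.22 did not pass the test (edgeR adjusted p = 0.126). Cdc20 shares exon bases with Elovl1 on the opposite strand, which had more counts. Ube2c, the ubiquitin-conjugating enzyme of the APC/C, fell by 1.58 ± 0.51 after I/R in knockouts (edgeR adjusted p = 0.0189). That call was lost without PT-KO library 1 (-1.095) or PT-KO+I/R library 3 (-1.306).

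In the chromosomal passenger complex, which corrects faulty attachments, Aurkb, or Aurora B, was at 2.01, 1.16 and 1.11 CPM in sham controls, 4.55, 4.38 and 4.49 in injured controls, 1.01, 0.968 and 0.123 in sham knockouts and 0.598, 1.02 and 0.773 in injured knockouts. Birc5, or survivin, was at 1.76, 1.71 and 1.72 CPM in sham controls, 7, 6.31 and 4.80 in injured controls, 2.58, 1.83 and 1.23 in sham knockouts and 1.45, 0.979 and 2.06 in injured knockouts. Both genes were highest in injured controls without overlap, and the sham controls of Aurkb lay above both knockout groups. Cdca8, or borealin, fell by 1.04 ± 0.40 after I/R in knockouts (edgeR adjusted p = 0.0407). The fall of Cdca8 no longer passed without any 1 of PT-KO libraries 1 and 2 and PT-KO+I/R library 4, nor with total counts, DESeq2 or no low-count filter. Incenp, the scaffold of the complex, was not one of the 40 genes and was looked at after its values were known: it had 12, 11.2 and 9.42 CPM in injured controls and 10.2, 12.5 and 11.5 in injured knockouts, with overlap.

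At the kinetochore, 3 subunits of the NDC80 complex, which binds microtubules, had unlike levels. Ndc80 was at 1.45, 0.488 and 0.775 CPM in sham controls, 3.93, 6 and 3.79 in injured controls, 0.820, 0.807 and 0.307 in sham knockouts and 0.512, 0.356 and 0.387 in injured knockouts. Nuf2, its dimer partner, rose in controls by 2.14 ± 0.28 and fell by 1.17 ± 0.40 in knockouts (edgeR adjusted p = 0.00663 and 0.0272). The fall of Nuf2 passed in 0 of 6 fits with 1 library left out (-1.26 to -1.04), and neither with DESeq2 nor without the low-count filter. Spc25 (chr2:69193895-69206194) was at 51.6, 47.3 and 29.4 CPM in sham controls, 25.4, 24.1 and 41.9 in injured controls, 38.1, 27 and 24.3 in sham knockouts and 30.7, 14.9 and 15.5 in injured knockouts. Its groups overlapped in all 4 comparisons of groups, with changes after I/R of -0.49 ± 0.27 in controls and -0.57 ± 0.27 in knockouts (edgeR adjusted p = 0.230 and 0.0863). Without both female sham controls the change of Spc25 in controls turned to 0.028. With a replicate block it was -0.99 and called (edgeR adjusted p = 0.00742). That fit gives weight only to libraries 1 and 2 of each group, where both sham controls are female. In knockouts the change of Spc25 was called with DESeq2 (-0.57), without the low-count filter and without PT-KO+I/R library 2 (-0.97). Without that library Spc25 was also lower in injured knockouts than injured controls (-0.99, edgeR adjusted p = 0.0247). Per kilobase of exon, Spc25 was at 13.4 CPM in sham controls, where Ndc80 was at 0.140 and Nuf2 at 0.162. The Spc25 level was 4.02 to 11 times that of Ndc80 in injured controls and at least 33.4 times in each library of the other groups.

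Cenpe, a kinesin that carries chromosomes to the spindle equator, rose in controls by 1.07 ± 0.26 and fell by 1.66 ± 0.34 in knockouts (edgeR adjusted p = 0.0311 and 0.00184). The call of its rise in controls was lost without any 1 of Ctrl libraries 1 and 2 and Ctrl+I/R libraries 1 and 2, with changes of 0.882 to 1.095. Without both females the change of Cenpe in controls was 0.59. Cenpf, of the outer kinetochore, fell by 2.08 ± 0.56 in knockouts (edgeR adjusted p = 0.00794), and by 1.23 without PT-KO library 1. Cenpa, the histone H3 variant of centromeres, was at 2.51, 2.44 and 3.43 CPM in sham controls, 3.08, 2.19 and 2.34 in injured controls, 3.53, 1.83 and 1.72 in sham knockouts and 2.31, 0.756 and 1.29 in injured knockouts. These groups overlapped, and injured knockouts differed from injured controls by -0.87 ± 0.42, which did not pass the test (edgeR adjusted p = 0.122) except without PT-KO+I/R library 2 (-1.33, adjusted p = 0.0309).

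Kif23 (chr9:61915905-61946774), the motor subunit of centralspindlin, was at 4.21, 3.17 and 2.71 CPM in sham controls, 7, 7.93 and 4.87 in injured controls, 4.16, 3.01 and 2.64 in sham knockouts and 8.54, 10.1 and 16.6 in injured knockouts. Injured knockouts were above all other libraries. Kif23 rose in knockouts by 1.84 ± 0.28 (edgeR adjusted p = 0.000256), and that call held without any 1 library. Its rise in controls, 0.97 ± 0.26 (adjusted p = 0.0413), no longer passed in 5 of 6 fits with 1 library removed, and its excess in injured knockouts over injured controls, 0.83 ± 0.29 (adjusted p = 0.0447), in 4 of 6. With total counts in place of TMM that excess was 0.61 and did not pass (adjusted p = 0.108). The 2 responses to I/R differed by 0.88 ± 0.41, which did not pass (adjusted p = 0.125). Kif22, the chromokinesin Kid, rose in both genotypes, by 1.47 ± 0.24 and 1.19 ± 0.35 on the log2 scale. The call of Kif22 in controls was lost without Ctrl library 1 or 2, with changes of 1.447 and 1.378 there. Kif11, the motor Eg5 that separates spindle poles, was at 11.6, 11.9 and 9.86 CPM in injured controls and 1.88, 0.623 and 1.35 in injured knockouts. Kif2c, Kif4 and Kif20a, motors of microtubule ends, chromosome arms and the midzone, were lower in injured knockouts, with log2 differences of -2.38 ± 0.84, -3.27 ± 0.46 and -2.08 ± 0.38. The difference of Kif2c (edgeR adjusted p = 0.0477), with 13, 0 and 7 counts in the injured knockout libraries, ran from -3.55 to -1.63 with 1 library left out. It no longer passed without any 1 of the 3 Ctrl+I/R libraries or PT-KO+I/R library 4.

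Racgap1, which forms centralspindlin with Kif23, was at 4.46, 2.62 and 2.44 CPM in sham controls, 9.86, 10.6 and 7.84 in injured controls, 4.10, 2.42 and 2.82 in sham knockouts and 1.45, 1.25 and 0.838 in injured knockouts. It fell by 1.41 ± 0.33 after I/R in knockouts, where Kif23 rose (edgeR adjusted p = 0.00367). The Kif23 level was 5.88 to 19.8 times that of Racgap1 in injured knockouts and at most 1.24 times in the other 9 libraries. Ect2, the RhoA exchange factor that centralspindlin recruits, was at 15.2, 14.6 and 11.1 CPM in sham controls, 11.7, 21.6 and 18.5 in injured controls, 11.9, 8.12 and 6.93 in sham knockouts and 3.42, 2.94 and 3.80 in injured knockouts. Injured knockouts were the lowest, with a fall of 1.42 ± 0.24 from sham knockouts (edgeR adjusted p = 0.000516), while the change in controls of 0.34 ± 0.23 did not pass (adjusted p = 0.319). Anln, the anillin scaffold of the contractile ring, was at 3.26, 1.95 and 3.93 CPM in sham controls, 10.8, 12.4 and 8.78 in injured controls, 4.35, 2.31 and 1.96 in sham knockouts and 5.12, 5.47 and 7.60 in injured knockouts. It rose in knockouts by 1.08 ± 0.31 (edgeR adjusted p = 0.0122) yet stayed below injured controls, with a log2 difference of -0.82 ± 0.21 (adjusted p = 0.0152). The first of these calls was lost without PT-KO+I/R library 4 and the second without PT-KO+I/R library 3.

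**Figure D5:**
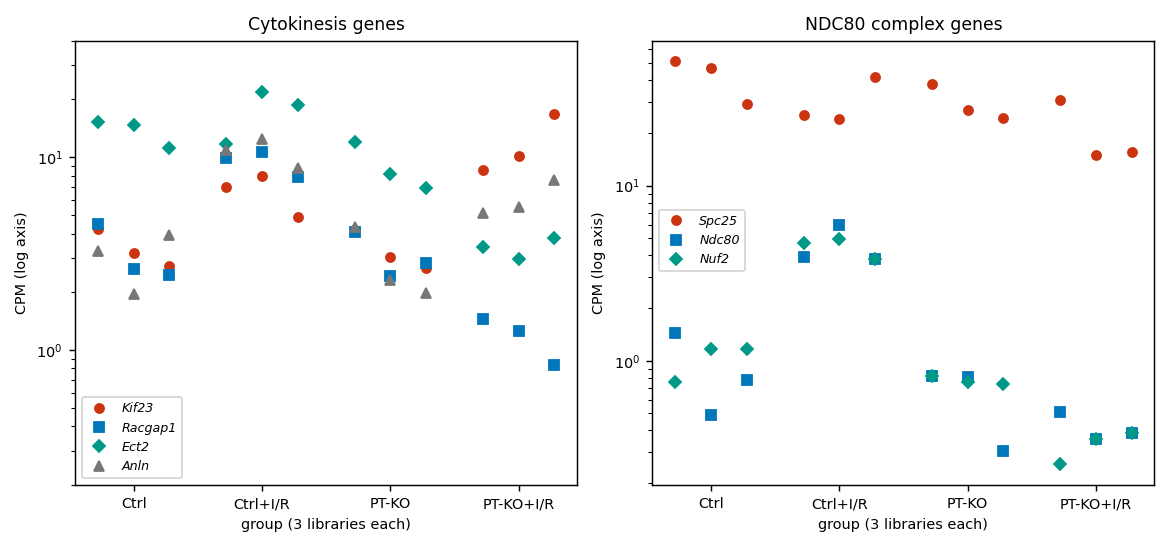
CPM on a log axis of cytokinesis genes (Kif23, Racgap1, Ect2, Anln) and NDC80 complex genes (Spc25, Ndc80, Nuf2) in the 3 libraries of each group. Kif23 is above Ect2 in injured knockouts alone, and far above Racgap1 there, with levels close to it in the sham groups, and Spc25 is above Ndc80 and Nuf2 throughout.

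All 4 spindle and midzone genes differed between genotypes in their response to I/R. Without both female sham controls Prc1 and Nusap1 lost that call, Prc1 with a difference of -2.415 against -2.466 in all 12 libraries. The call of Prc1 was also lost without PT-KO library 1 (-1.714) or PT-KO+I/R library 4 (-2.34). Nusap1, which bundles spindle microtubules, was at 2.91, 2.26 and 6.98 CPM in sham controls, 9.95, 9.91 and 9.54 in injured controls, 7.25, 7.05 and 4.35 in sham knockouts and 4.78, 3.87 and 4.77 in injured knockouts. The female sham controls were below the third, and the change in controls of 1.28 ± 0.39 did not pass (edgeR adjusted p = 0.0576). It was 1.93 and called without Ctrl library 3 (adjusted p = 0.00844), was called with total counts and with DESeq2, and was 0.47 without both females. The difference in response of Nusap1 went from -1.75 to -0.98 without both females (adjusted p = 0.0927). Hmmr, a spindle pole protein, fell by 2.38 ± 0.56 after I/R in knockouts (edgeR adjusted p = 0.00378). Like Ccna2, Cdc20 and Ncapg, the genes Ube2c, Cdca8, Kif4, Kif20a, Prc1 and Nusap1 share exon bases with a protein-coding gene on the opposite strand, and Plk1 and Kif22 with a predicted or antisense gene of few counts, so their counts are uncertain to that extent. Tpx2, the activator of Aurora A, and Prc1, which crosslinks midzone microtubules, were lower in injured knockouts than injured controls, with log2 differences of -2.97 ± 0.25 and -2.79 ± 0.43.

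Of 62 other mitotic genes, 43 of 59 tested rose after I/R in controls (11.4% of all tested genes) and Pttg1 fell, and 48 of 59 were lower in injured knockouts than injured controls (24.4% of all). Within knockouts 11 of 46 rose and 11 fell, both below the shares of all tested genes (32.9% and 32.7%). Nek2, a centrosome kinase named after its values were seen, was the one gene of that list that was higher in injured knockouts (28.3, 20.6 and 20.4 CPM) than injured controls (10.3, 12.7 and 11.8 CPM). Mybl2, the gene of B-MYB, rose after I/R in knockouts by 1.13 ± 0.31 (edgeR adjusted p = 0.00872). Its change in controls was 0.77 ± 0.43 (adjusted p = 0.222), and the difference between the responses of Mybl2, 0.37 ± 0.54, did not pass (adjusted p = 0.632). The 21 genes listed as constitutive machinery are the APC/C core, MuvB and pocket proteins. Their median log2 fold changes were 0.10 after I/R in controls and -0.04 between the injured groups. There 4 were higher and 6 lower in knockouts, shares near those of all tested genes (22.5% and 24.4%). The response to I/R differed between genotypes in 6 of the 21, each with the lower value in knockouts, where 16.4% of all tested genes were called in that direction. Rbl1, the pocket protein p107, was at 22.7, 29.5 and 30.7 CPM in injured controls and 6.75, 7.52 and 6.57 in injured knockouts. Of 9 brakes on entry, 2 were higher and 4 lower in injured knockouts, where 22.5% and 24.4% of all tested genes were. Among them Cdkn1a, the inhibitor p21, was at 6.02, 6.84 and 3.60 CPM in sham controls, 24.8, 40.9 and 15.2 in injured controls, 4.48, 2.47 and 2.15 in sham knockouts and 246, 187 and 256 in injured knockouts. The responses of Cdkn1a to I/R differed by 3.95 on the log2 scale (edgeR adjusted p = 0.000298).

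Markers of other cells moved between the same groups, and their part in the results was not tested. The 7 macrophage markers summed to 130 to 239 CPM in injured controls and 58.2 to 65.7 in injured knockouts, with 86.9 to 110 in sham controls. Of them 6 were lower and 1 higher in injured knockouts than injured controls (24.4% and 22.5% of all tested genes). The 9 T and B cell markers summed to 6.13 to 15.8 and 0.427 to 1.10 CPM in the injured groups, and the 6 neutrophil markers to 9.48 to 41.5 and 54.6 to 82.7. Markers of dividing myeloid precursors were at or near 0, with Ctsg and Ms4a3 at 0 in every library. The 8 erythroid markers measured summed to 98.5 to 246 CPM in injured controls and 43.8 to 51.2 in injured knockouts, the 4 fibroblast markers to 199 to 254 and 91.2 to 145, and the 4 endothelial markers to 242 to 269 and 337 to 341. Of the fibroblast markers only Col1a1 was called lower, at a mean of 126 CPM in injured controls and 11.5 in injured knockouts. The 9 proximal tubule markers, present in all libraries, summed to 13495 to 15076 CPM in sham controls, 3675 to 9054 in injured controls and 2336 to 2925 in injured knockouts.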

How the data were processed

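Bulk RNA from mouse kidney cortex was sequenced on an Illumina platform. The authors deposited whole-number read counts per Ensembl gene for 12 libraries, not normalized or filtered. HISAT2 2.0.4 and mm10 are named in the submitters' processing notes, while the counting program and its strand setting are not given in the sources used here. The labels set the groups, and Ctrl library 3 was placed by its column name.

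After filterByExpr and TMM scaling, the edgeR 4.0.16 quasi-likelihood test (R 4.3.3) was fitted to the 6 libraries of each comparison, or to all 12 for the interaction. SEs were derived from the log2 fold change and F. The labels do not state that libraries of a group are separate animals, so p-values measure the spread between these libraries. On simulated counts for Ctrl+I/R against Ctrl, edgeR recovered 130 of 200 changed genes with 6 false calls among 15346 genes. For the interaction it recovered 105 of 200, with 3 false calls among 15875 genes. Changes were set at 2-fold or 4-fold, and of those at 2-fold 34 of 85 and 38 of 102 were recovered. Over all genes the variance between libraries exceeded counting error 8.05-fold or more. Counts of the 40 genes in injured knockouts were small (medians of 18.5, 21 and 18 per library), so depth limits those values too. Alternatives were DESeq2 1.42.0, total counts, testing without a low-count filter or only genes with at least 10 counts in every library, a single fit to all libraries, a replicate block, leaving out each library, and 1 fit to the 10 libraries that remain without both female Ctrl libraries. Symbols, coordinates (GRCm38) and exon lengths came from GENCODE M21. Markers were matched for 62 of 63 listed genes.

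The 40 genes, the other lists and the tests were chosen with earlier results of these data known. Any of the 40 could be named, with values in every library for the highest gene of each role and for 9 preset genes, to which others were added after their values had been seen. From the other lists the 4 highest genes, Cdkn1a, Mybl2 and Rbl1 could be named.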

Additional observations from a re-analysis of the deposited data

Results flagged for a closer look

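The response to I/R differed between control and knockout mice in 27 of the 40 mitotic genes, by the edgeR test of the difference between the 2 responses over all 12 libraries, and each difference was negative, where 16.4% of 16168 tested genes were called in that direction. The difference on the log2 scale was -3.35 for Mki67, -4.03 for Top2a, -2.71 for Ccna2 and -2.15 for Birc5. It was -1.95 for Bub1b, -1.75 for Ect2, -1.75 for Nusap1, -1.73 for Aurka and -1.70 for Cdk1. Female libraries were present among sham controls alone, and these differences were called in 16 genes without them. Of the genes above, Ccna2, Bub1b, Nusap1, Aurka and Cdk1 lost the call in that fit, while Mki67, Top2a, Birc5 and Ect2 were still called. The differences there were -2.605 for Ccna2 and -2.154 for Bub1b, near or beyond those of all 12 libraries. Those of Nusap1, Aurka and Cdk1 were smaller, at -0.978, -1.134 and -1.315. With 1 of the 12 libraries left out, the call was lost in 5 fits for Bub1b, in 4 for Aurka (without Ctrl library 1 or 2, PT-KO library 1 or PT-KO+I/R library 4) and in 2 for Ccna2 (without PT-KO library 1 or PT-KO+I/R library 4). With 3 libraries in each group, single libraries were not tested for standing apart.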

How the results depend on the processing

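Total counts, DESeq2, no low-count filter and 1 fit to all libraries kept every count of the 40 genes within 1.5 times its value. Without both female Ctrl libraries, 8 genes rose after I/R in controls (median 1.43 against 1.39), while the genes that rose among all tested went from 1778 to 664. There 16 genes differed in response between genotypes (median -2.10 against -2.12, and 1428 against 2648 genes lower among all tested), and the uncalled change of Spc25 in controls turned from -0.49 to 0.028. With at least 10 counts in every library, 24 of 27 genes tested were called between the injured groups, with a median log2 fold change of -2.15. There and with total counts, Kif23 was no longer called between the injured groups.

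Leaving out 1 library gave 15 to 27 called genes and medians of 1.37 to 1.53 for I/R in controls, 11 to 24 and -1.23 to -0.35 for I/R in knockouts, 34 to 39 between the injured groups, 0 to 2 and -0.79 to -0.084 between the sham groups (the 2 without Ctrl library 3, where 1930 of all 15597 genes were called, against 0 to 3 in the other fits), and 21 to 31 and -2.42 to -1.78 for the difference in response. The lowest counts for I/R in controls came without Ctrl library 2 (15) and Ctrl library 1 (17), and the count of 24 for I/R in knockouts without PT-KO+I/R library 2. In the fit without both females, the single sham control was assumed to vary like the other groups. Calls kept in every such fit were 14 of 27, 9 of 15, 33 of 38 and 21 of 27, in the order I/R in controls, I/R in knockouts, injured groups and difference in response.

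Libraries with the same number did not deviate together (correlations of -0.188 to 0.148 over 12 pairs), so the numbers were not taken as pairs. In fits of 2 groups with a replicate block, a library whose number has no partner in the other group carries no weight. Comparisons with sham controls thus rested on libraries 1 and 2 of each group, where both sham controls are female. Those of I/R in knockouts and of the injured groups rested on libraries 2 and 4. The counts were then 33 for I/R in controls (32 higher and Spc25 lower, median 1.54), 9 for I/R in knockouts (4 higher and 5 lower, median -0.20), 23 between the injured groups (all lower) and 2 between the sham groups (1 higher and 1 lower). Calls over all genes went from 3019 to 3612, from 9929 to 8437, from 7169 to 1683 and from 0 to 1378 in the same order. These fits thus set fewer libraries against each other than the fits without a block, and the cause of the shifts was not tested. Total counts moved the median of all genes by -0.21 between the injured groups.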

Other observations

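Some of the 62 other mitotic genes rose after I/R in both genotypes. Nek2 rose by 1.67 on the log2 scale and Incenp by 1.22 (edgeR adjusted p = 5.24e-05 and 0.000223), and both rose in controls as well, by 1.31 and 1.19. Both were named after their values had been seen. Promoters of these other genes held a CHR in 57.7% of 52 and a CCAAT box 20 to 50 bases before it in 21.2%, and those of the constitutive machinery in 23.8% and 0.0% of 21.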
